A study of Mus musculus with 8 samples.

Results

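MHC class II molecules, the proteins that present peptides to CD4 T cells, were followed through 8 genes: H2-Aa, H2-Ab1 and H2-Eb1, which encode chains of the molecules, Cd74, H2-DMa, H2-Oa and H2-Ob, which encode proteins that control their loading with peptide, and Ciita, which encodes the regulator of their transcription. Every probe set listed with just 1 of these symbols in the platform annotation was taken, which gave 16 of 45101 probe sets and 8 of 18193 measured genes. The genes were chosen on the values of IkL/L cells, in which several of them were higher with the inhibitor. Their differences on IkL/L arrays are therefore given as a description with no test. The response of WT cells was tested. Its size was read from other arrays, but the spread behind its p-values was pooled over all 8 arrays, IkL/L included. The test is therefore not fully independent of the choice of genes. When the IkL/L arrays were left out of the fit, 0 of the 8 genes passed, beside 1 of all 18193 genes.

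RNA of DN3 thymocytes, an early T cell precursor, was read on 8 Affymetrix mouse arrays that form 4 groups of 2. The groups were IkL/L cells with GSI, IkL/L cells with DMSO, WT cells with GSI and WT cells with DMSO. IkL/L is the genotype that the series title calls Ikaros deficient, Ikaros being the zinc finger protein that Ikzf1 encodes. GSI is MRK-003, an inhibitor of gamma-secretase, the protease that frees the active part of a Notch receptor. It was given for 16 h at a labelled dose of 5 mM, and DMSO is its vehicle. Cells of all 4 groups were lineage-negative thymocytes grown on OP9 DL1, mouse stromal cells engineered to carry a Delta-like ligand for Notch, and were then sorted as Lin-CD44-CD25+. The labels name no age and no number of mice, and are silent on whether the replicates were separate mice or cultures. All p-values therefore measure the spread between these arrays, which may be technical.

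Class II molecules are pairs of an alpha and a beta chain. In mice H2-Aa and H2-Ab1 encode the I-A pair, and H2-Eb1 encodes the I-E beta chain. New pairs bind the invariant chain, Cd74, which guides them to endosomes, where proteases trim it and the DM molecule helps a peptide take its place. DO, made of the H2-Oa and H2-Ob products, binds DM and restrains it. Dendritic cells, B cells, macrophages and thymic epithelial cells are the usual carriers of class II. Ciita does not bind DNA itself. It is recruited to factors that sit on the X and Y boxes of class II promoters.

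Values are log2 levels as deposited, and a difference of 1 is a 2-fold change. They do not say whether a probe set lies above background. The levels of different probe sets were not set against each other. Array medians lay between 5.25 and 5.33, and r between the replicates of a group, over all probe sets, was 0.975 to 0.993. The WT GSI arrays were farthest apart, with 830 genes over 2-fold apart between them, against 146 to 390 in the other groups. Ikzf1 read lower in IkL/L than in WT cells under DMSO (-0.90 ± 0.14, moderated SE, adjusted p = 0.0222 by limma) and did not pass under GSI (-0.43 ± 0.14, adjusted p = 0.298). Where its probe set lies relative to the change in the IkL allele is not known, so this is a weak check of the labels. The Notch target Dtx1 fell with GSI in both genotypes (-4.55 ± 0.20 in IkL/L, -4.20 ± 0.20 in WT, adjusted p = 9.48e-05 and 0.000356 by limma), as did Il2ra, the gene of the sorted marker CD25 (-2.18 ± 0.15 in IkL/L, -2.37 ± 0.15 in WT, adjusted p = 0.00049 and 0.00141). Of 16 measured DN3 marker genes 3 rose and 5 fell with GSI in IkL/L cells, and 1 rose and 5 fell in WT cells. None of the 16 was below the median gene level on every array.

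H2-Aa, H2-Ab1, H2-Eb1 and Cd74 were at their highest in IkL/L cells with GSI, by 2.31-fold to 12.9-fold over IkL/L cells with DMSO. In WT cells none of these 4 genes passed the test for GSI. H2-DMa and H2-Ob had a different pattern: their levels were higher with GSI in both genotypes and lower in IkL/L than in WT cells, although the genotype differences of H2-DMa were not past the threshold. The brightest probe set of Ciita, which stands for the gene, stayed within 0.43 on the log2 scale over all 8 arrays. In bulk RNA, a different number of class II-bearing cells and a different amount of class II RNA per cell cannot be told apart.

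**Figure D1:**
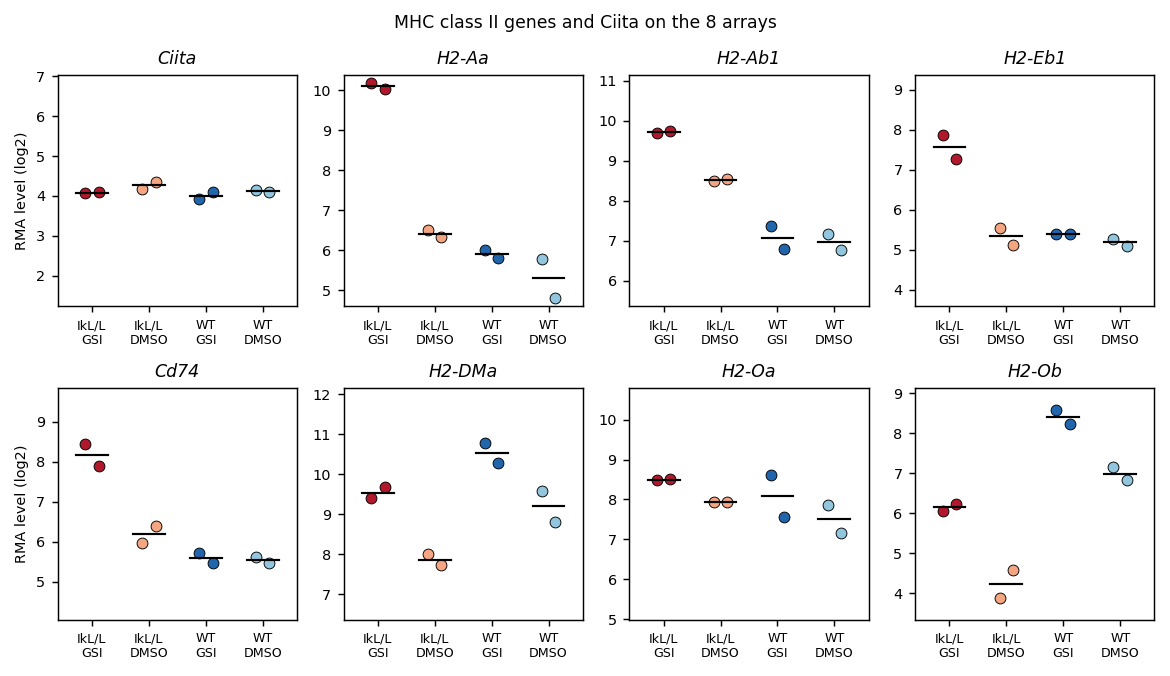
Log2 RMA level (vertical axis) of the 8 genes on each of the 8 arrays, in IkL/L GSI, IkL/L DMSO, WT GSI and WT DMSO cells from left to right. Points are arrays and bars are group means (n = 2). All panels span the same number of log2 units. The 2 IkL/L GSI points of H2-Aa, at 10.19 and 10.04, stand above all others of that gene, while the points of Ciita lie level.

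Ciita, located at chr16:10480014-10531064 in GRCm38.p6, is transcribed from several alternative promoters and is known as the switch for class II transcription. Its level was 4.07 and 4.09 in the IkL/L GSI group, 4.18 and 4.35 in the IkL/L DMSO group, 3.92 and 4.09 in the WT GSI group, and 4.16 and 4.11 in the WT DMSO group. All of these values lay under the array medians: 26.5% to 35.7% of probe sets on the same array read lower. The difference between GSI and DMSO was -0.18 ± 0.11 in IkL/L cells and -0.13 ± 0.11 in WT cells, where it did not pass (adjusted p = 0.61 by limma, 95% interval -0.39 to 0.13). Between genotypes, IkL/L minus WT, it was 0.08 ± 0.11 under GSI and 0.13 ± 0.11 under DMSO. The other 2 probe sets of Ciita read between 3.02 and 4.001 on all arrays. The first of them read 3.95 and 4.001 in the IkL/L GSI group, 3.66 and 3.82 in the IkL/L DMSO group, 3.70 and 3.32 in the WT GSI group, and 3.67 and 3.38 in the WT DMSO group, so that it was highest in IkL/L cells with GSI. Between genotypes it differed by 0.46 ± 0.15 under GSI, with no overlap, and by 0.21 ± 0.15 under DMSO. The second differed by -0.16 ± 0.12 under GSI and 0.36 ± 0.12 under DMSO. With every probe set treated as a feature, as in these values, they differed between GSI and DMSO by 0.24 ± 0.15 and -0.44 ± 0.12 in IkL/L cells and by -0.01 ± 0.15 and 0.08 ± 0.12 in WT cells. No probe set of Ciita passed the threshold in any of the 5 comparisons.

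H2-Aa, the I-A alpha chain gene, is at chr17:34282744-34287823. Its level was 10.19 and 10.04 in the IkL/L GSI group, 6.50 and 6.33 in the IkL/L DMSO group, 6.002 and 5.81 in the WT GSI group, and 5.78 and 4.81 in the WT DMSO group. No groups overlapped, although the WT groups came within 0.02 of each other. GSI minus DMSO was 3.69 ± 0.30 in IkL/L cells, or 12.9-fold. In WT cells it was 0.61 ± 0.30 and did not pass (adjusted p = 0.297 by limma, 95% interval -0.08 to 1.29). The WT value rested on the WT DMSO arrays, which were 0.97 apart: it was 0.12 without WT DMSO replicate 2 and 1.09 without WT DMSO replicate 1. IkL/L minus WT was 4.21 ± 0.30 under GSI, or 18.5-fold, and 1.12 ± 0.30 under DMSO, which was not past the threshold. These sizes depended on the probe set: with the mean of the gene's 4 probe sets they were 2.64 under GSI and 0.55 under DMSO, and GSI minus DMSO in IkL/L cells was 2.35.

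The other 3 probe sets of H2-Aa kept the order of the IkL/L groups at smaller sizes. The probe set next in level read 8.72 and 8.59 in the IkL/L GSI group, 5.54 and 5.65 in the IkL/L DMSO group, 5.34 and 5.28 in the WT GSI group, and 5.18 and 4.80 in the WT DMSO group. A further one read 6.13 and 5.73 in the IkL/L GSI group, 4.79 and 4.80 in the IkL/L DMSO group, 4.71 and 4.38 in the WT GSI group, and 4.45 and 4.22 in the WT DMSO group. The dimmest one read 4.31 and 4.17 on the IkL/L GSI arrays and between 2.61 and 2.80 on the other 6 arrays, where at most 1.93% of probe sets read lower. With every probe set as a feature, GSI minus DMSO in IkL/L cells was 3.07 ± 0.19, 1.14 ± 0.19 and 1.51 ± 0.09 for these probe sets in turn. In WT cells it was 0.32 ± 0.19, 0.21 ± 0.19 and -0.08 ± 0.09, and none passed (adjusted p = 0.445, 0.65 and 0.713 by limma). Of the 4 probe sets, 3 carry the suffix x_at, which Affymetrix gives to probe sets that may bind transcripts of other genes.

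H2-Ab1, the I-A beta chain gene at chr17:34263227-34269418, was apart between genotypes also without inhibitor. The groups of H2-Aa did not overlap there either, but its difference was not past the threshold. Its level was 9.69 and 9.74 in the IkL/L GSI group, 8.48 and 8.53 in the IkL/L DMSO group, 7.36 and 6.79 in the WT GSI group, and 7.16 and 6.77 in the WT DMSO group. The 2 WT groups overlapped, and both IkL/L groups lay above them. IkL/L minus WT was 2.64 ± 0.24 under GSI and 1.54 ± 0.24 under DMSO, or 6.25-fold and 2.91-fold. GSI minus DMSO was 1.21 ± 0.24 in IkL/L cells, and 0.11 ± 0.24 in WT cells (adjusted p = 0.866 by limma, 95% interval -0.44 to 0.65). The WT value turned to -0.18 without WT GSI replicate 1 and to -0.09 without WT DMSO replicate 2. The other 2 probe sets of H2-Ab1 differed between GSI and DMSO by 1.11 ± 0.27 and 0.52 ± 0.26 in IkL/L cells, and by 0.02 ± 0.27 and -0.01 ± 0.26 in WT cells, with every probe set as a feature. Between genotypes they differed by less than the first, by 2.02 ± 0.27 and 1.28 ± 0.26 under GSI. Under DMSO they differed by 0.94 ± 0.27 and 0.75 ± 0.26, and neither was past the threshold. With the mean of the gene's probe sets the genotypes differed by 1.98 under GSI and 1.075 under DMSO.

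H2-Eb1, the I-E beta chain gene at chr17:34305867-34316674, was flat apart from the IkL/L GSI group. Its level was 7.88 and 7.26 in the IkL/L GSI group, 5.55 and 5.13 in the IkL/L DMSO group, 5.39 and 5.40 in the WT GSI group, and 5.28 and 5.09 in the WT DMSO group. The 6 arrays outside the IkL/L GSI group lay within 0.46 of each other, and the IkL/L DMSO values spanned those of WT GSI. GSI minus DMSO was 2.23 ± 0.23 in IkL/L cells, or 4.70-fold. It was 0.21 ± 0.23 in WT cells (adjusted p = 0.699 by limma, 95% interval -0.33 to 0.75). The genotypes, IkL/L minus WT, differed by 2.17 ± 0.23 under GSI and 0.15 ± 0.23 under DMSO.

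The promoters of 5 of the 8 genes were listed, from RefSeq on GRCm38.p6, each from 250 bases before to 50 after a listed start. The stretches below are shown because H2-Aa and H2-Eb1, which were high in IkL/L GSI cells, and H2-Oa and H2-Ob, which had other patterns, carry the same arrangement. Capitals mark GCAAC, the core letters of the X box, and GATTGG, those of the Y box, in the direction of transcription. These letters were settled on with the sequences in view.
H2-Aa: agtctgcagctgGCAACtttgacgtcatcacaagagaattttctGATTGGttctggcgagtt
H2-Eb1: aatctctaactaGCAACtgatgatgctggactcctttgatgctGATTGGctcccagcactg
H2-Oa: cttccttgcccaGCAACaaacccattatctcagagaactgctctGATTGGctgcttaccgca
H2-Ob: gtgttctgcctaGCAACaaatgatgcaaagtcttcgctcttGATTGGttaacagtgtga

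The H2-Aa stretch is at chr17:34287855-34287916 on the minus strand. The others are on the plus strand, H2-Eb1 at chr17:34305764-34305824, H2-Oa at chr17:34092291-34092352 and H2-Ob at chr17:34238806-34238864. The motifs were 27 bases apart in H2-Aa, 26 in H2-Eb1, 27 in H2-Oa and 24 in H2-Ob, with GCAAC starting 81, 91, 76 and 87 bases before the gene start in the same order. Of 32817 listed promoters, 35.2% held GCAAC and 16.1% held GATTGG on either strand. The ordered pair with 10 to 40 bases between, on either strand, was in 165 promoters, or 0.503%. Both listed promoters of H2-DMa, at chr17:34122582-34122881 and chr17:34125268-34125567, lacked the pair, and 1 of them held GATTGG. They lie inside the span given for H2-DMa, chr17:34119693-34139101. The stretch before the start of that span was not listed, so whether it holds the pair was not read. A match is a string of letters and not a measured binding site, and the presence of the arrangement did not separate the genes by their levels.

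Cd74, the invariant chain gene, lies outside the class II region, at chr18:60803849-60812652. Its level was 8.44 and 7.90 in the IkL/L GSI group, 5.98 and 6.40 in the IkL/L DMSO group, 5.73 and 5.48 in the WT GSI group, and 5.61 and 5.46 in the WT DMSO group. The WT groups overlapped, and the IkL/L DMSO arrays lay above them by at least 0.25. GSI minus DMSO was 1.98 ± 0.24 in IkL/L cells, or 3.94-fold, and 0.06 ± 0.24 in WT cells (adjusted p = 0.924 by limma, 95% interval -0.48 to 0.61). IkL/L minus WT was 2.57 ± 0.24 under GSI and 0.65 ± 0.24 under DMSO. The WT difference changed sign when the arrays were quantile normalized once more, to -0.0028.

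H2-DMa, the alpha chain gene of the peptide editor DM, is at chr17:34119693-34139101. It rose with GSI in WT cells, to 10.79 and 10.27 on the WT GSI arrays, against 9.59 and 8.81 on the WT DMSO arrays. This difference was 1.33 ± 0.30, or 2.51-fold (adjusted p = 0.0381 by limma, 95% interval 0.65 to 2.01). The call depended on the arrays and probe sets used. It was kept in 1 of 8 fits that left out an array, the fit without WT GSI replicate 2, with differences from 0.94 to 1.72 over the 8 fits, and the adjusted p was 0.0529 for the mean of both probe sets and 0.159 with only the 4 WT arrays. In IkL/L cells the level was 9.39 and 9.68 with GSI, against 8.00 and 7.73 with DMSO, a difference of 1.67 ± 0.30. The genotypes differed by -0.995 ± 0.30 under GSI and -1.34 ± 0.30 under DMSO, with no overlap of the groups. The other probe set gave the same order of groups, at 6.15 and 6.55 in the IkL/L GSI group, 5.39 and 5.06 in the IkL/L DMSO group, 7.28 and 7.26 in the WT GSI group, and 6.57 and 5.74 in the WT DMSO group.

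H2-Ob, the beta chain gene of the DM inhibitor DO, at chr17:34238905-34245908, was, like H2-DMa, higher with GSI and lower in IkL/L cells, with larger gaps between genotypes. It rose with GSI in WT cells, to 8.60 and 8.23 on the WT GSI arrays, against 7.16 and 6.83 on the WT DMSO arrays, a difference of 1.42 ± 0.26 or 2.68-fold (adjusted p = 0.0219 by limma, 95% interval 0.82 to 2.02). The adjusted p was 0.0811 when WT DMSO replicate 1 was left out, 0.103 when WT DMSO replicate 2 was, 0.0509 without WT GSI replicate 1 and 0.103 with only the 4 WT arrays, with differences from 1.24 to 1.60 over the fits that left out an array. In IkL/L cells it was at 6.06 and 6.24 with GSI, against 3.89 and 4.59 with DMSO, a difference of 1.92 ± 0.26. The genotypes, IkL/L minus WT, differed by -2.26 ± 0.26 under GSI and -2.76 ± 0.26 under DMSO, or 4.80-fold and 6.76-fold lower in IkL/L cells. The IkL/L GSI arrays thus lay under the WT DMSO arrays, whereas for H2-DMa these groups overlapped. A further probe set listed for both Gm20506 and H2-Ob fell outside the rule and read between 4.84 and 5.80 on all arrays. It was at 5.24 and 5.11 in the IkL/L GSI group and 5.17 and 4.84 in the IkL/L DMSO group. In WT cells it was at 5.80 and 5.51 with GSI and 5.57 and 5.13 with DMSO. Its genotypes overlapped under DMSO, and the larger gaps given above are those of the other probe set.

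H2-Oa, the DO alpha chain gene at chr17:34092379-34095234, did not share that pattern. Its level was 8.48 and 8.51 in the IkL/L GSI group, 7.94 and 7.93 in the IkL/L DMSO group, 8.62 and 7.57 in the WT GSI group, and 7.86 and 7.17 in the WT DMSO group. The IkL/L replicates were within 0.03 of each other, while the WT GSI replicates were 1.05 apart and overlapped the other 3 groups. GSI minus DMSO was 0.56 ± 0.35 in IkL/L cells and 0.58 ± 0.35 in WT cells (adjusted p = 0.42 by limma, 95% interval -0.23 to 1.40). IkL/L minus WT was 0.40 ± 0.35 under GSI and 0.42 ± 0.35 under DMSO.

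**Figure D2:**
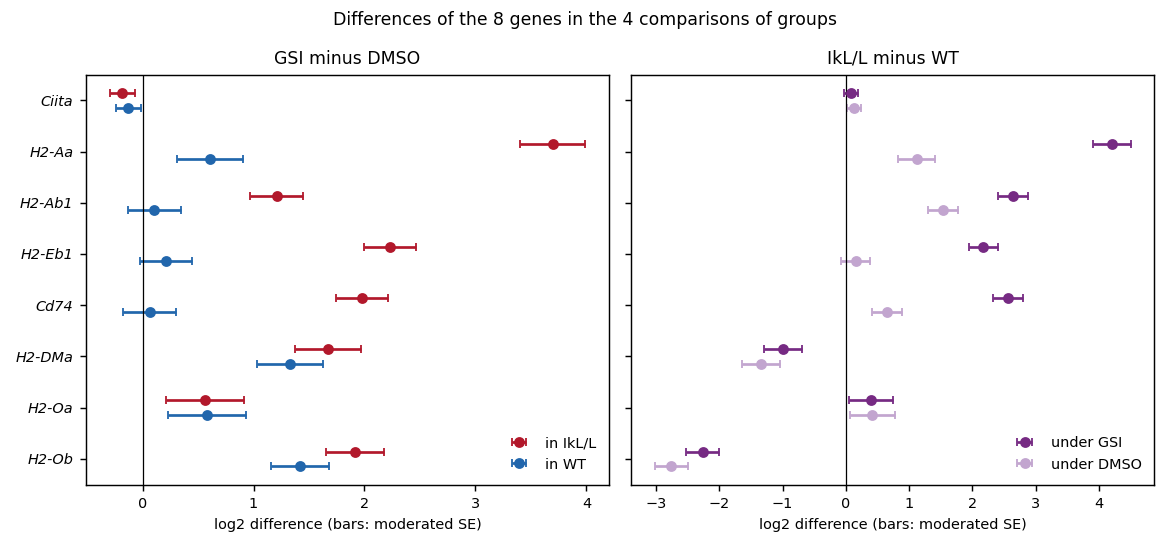
Log2 differences of the 8 genes with moderated SE. The left panel has GSI minus DMSO in IkL/L (red) and WT cells (blue), the right panel IkL/L minus WT under GSI (dark) and under DMSO (light). H2-Aa, H2-Ab1, H2-Eb1 and Cd74 lie at 1.21 to 3.69 in IkL/L cells and at 0.06 to 0.61 in WT cells, and H2-DMa and H2-Ob lie left of 0 in the right panel.

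For GSI in WT cells, 6.47% of all genes passed the threshold (adjusted p below 0.05), and 2.31% of all genes did so as higher. Of the 8 genes, 2 passed, both higher, in the fit of all 8 arrays. When the IkL/L arrays were left out 0 passed, beside 1 of all 18193 genes. So few genes passed there that this 0 cannot set the 8 apart from the rest. The median difference of the 8 in the fit of all arrays was 0.40, against 0.035 over all genes. The groups did not overlap for 5 of the 8, against 44% of all genes. The counts that follow involve the IkL/L arrays on which the genes were chosen, so they describe that choice and are no test. In IkL/L cells 6 of 8 were past the threshold, all higher, beside 16.8% of all genes and 7.7% higher, with a median of 1.79 against -0.046. Between genotypes, IkL/L minus WT, H2-Aa, H2-Ab1, H2-Eb1 and Cd74 were past it as higher and H2-Ob as lower under GSI, beside 1.46% of all genes, 0.945% higher and 0.517% lower. Under DMSO H2-Ab1 was past it as higher and H2-Ob as lower, beside 1.74% of all genes, 0.709% higher and 1.03% lower. The comparisons share arrays.

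The difference of the GSI responses, IkL/L minus WT, was 3.09 ± 0.42 for H2-Aa, 2.02 ± 0.33 for H2-Eb1, 1.91 ± 0.33 for Cd74 and 1.10 ± 0.34 for H2-Ab1. For the other genes it was 0.50 ± 0.37 for H2-Ob, 0.34 ± 0.42 for H2-DMa, -0.02 ± 0.50 for H2-Oa and -0.06 ± 0.16 for Ciita. None of the 8 was past the threshold, beside 8 of 18193 genes (0.044%) in the same limma fit, while 1089 genes had an unadjusted p below 0.05. With every probe set as a feature, 1 of the 16 probe sets was past it, the dimmest of H2-Aa (1.59 ± 0.12), beside 2 of 34945 probe sets (0.00572%; 0.00286% higher). H2-Aa was also past it without WT DMSO replicate 2, at 3.57, and with the mean of its probe sets, at 2.09.

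**Figure D3:**
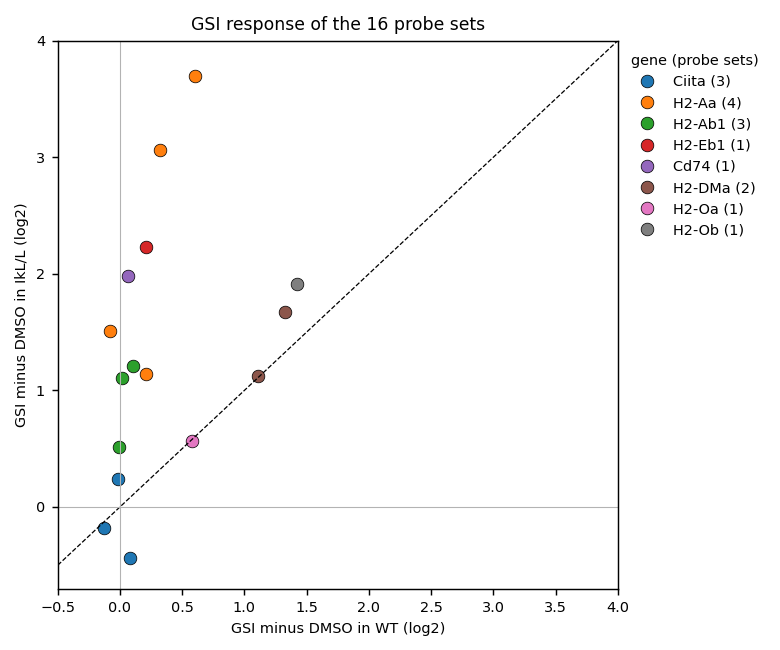
GSI minus DMSO (log2) of each of the 16 probe sets in WT cells (horizontal axis) and in IkL/L cells (vertical axis), coloured by gene. The dashed line marks equal differences. The 4 probe sets of H2-Aa and the 1 each of H2-Eb1 and Cd74 lie above the line, and those of H2-DMa, H2-Oa and H2-Ob lie nearer to it. The probe sets of a gene share its transcripts.

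At the level of probe sets, 11 of 16 were past the threshold in IkL/L cells, all higher, beside 13% of all probe sets and 5.3% higher. In WT cells 1 of 16 passed, that of H2-Ob, beside 3.57% of all and 0.993% higher. The class II probe sets outside the rule read as follows. H2-Ea, the I-E alpha chain gene, which some laboratory strains do not express, had 3 probe sets between 3.28 and 7.46. The brightest of them was not highest in IkL/L cells with GSI. It read 7.06 and 7.13 there and 7.20 and 7.19 in the IkL/L DMSO group. In WT cells it read 7.46 and 7.38 with GSI and 7.19 and 6.97 with DMSO. Probe sets listed for both H2-DMb1 and H2-DMb2, the DM beta chain genes, read 6.63 and 7.14 in the IkL/L GSI group, 5.74 and 5.62 in the IkL/L DMSO group, 7.59 and 6.41 in the WT GSI group, and 6.70 and 6.18 in the WT DMSO group for the brighter of 2.

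Genes of the steps around class II were counted over lists that hold none of the 8 genes. These lists and the marker lists were chosen with earlier results of these data known, so their p-values are no independent test. For each, the share of all genes called with GSI was 16.8% in IkL/L cells, 7.7% higher, and 6.47% in WT cells, 2.31% higher. Of 11 measured genes of class II loading and degradation, 2 rose and 1 fell with GSI in IkL/L cells, and 1 rose and 1 fell in WT cells. Ctsl, a protease that trims the invariant chain in thymic epithelium, rose in IkL/L cells (1.53 ± 0.20, adjusted p = 0.00246) and in WT cells (1.06 ± 0.20, adjusted p = 0.0241). Ctsd, another endosomal protease, rose in IkL/L cells (1.15 ± 0.24, adjusted p = 0.0138). Ifi30, a thiol reductase of the same compartment, fell in IkL/L cells (-1.38 ± 0.26, adjusted p = 0.00884) and in WT cells (-1.24 ± 0.26, adjusted p = 0.0305). All adjusted p-values of these lists are from the limma fit over all genes.

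Of 7 measured factors of the X and Y boxes none passed in WT cells, where 6.47% of all genes did. In IkL/L cells Rfxank, a subunit of the RFX complex, rose (0.72 ± 0.17, adjusted p = 0.0256 by limma) and Nfyb, a subunit of NF-Y, fell (-0.84 ± 0.19, adjusted p = 0.018). Of 13 measured genes known to act on Ciita, 5 rose and none fell in IkL/L cells, where 7.7% of all genes rose. Among them were Ifngr1, a chain of the interferon-gamma receptor (1.47 ± 0.28, adjusted p = 0.0104), the transcription factors Irf8 (1.19 ± 0.18, adjusted p = 0.00362) and Irf1 (0.96 ± 0.25, adjusted p = 0.0362), and the kinase Jak2 (0.80 ± 0.15, adjusted p = 0.00992). In WT cells Jak2 was the 1 of 13 that rose (0.69 ± 0.15, adjusted p = 0.0381).

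The class I pathway and interferon-gamma induced genes were counted beside these. Of 14 measured class I genes 6 rose and none fell with GSI in IkL/L cells, beside 7.7% of all genes that rose. They included Nlrc5, the class I counterpart of Ciita (2.32 ± 0.59, adjusted p = 0.0307 by limma), the peptide transporter genes Tap2 (1.46 ± 0.38, adjusted p = 0.0335) and Tap1 (1.38 ± 0.23, adjusted p = 0.00561), and the heavy chain gene H2-K1 (1.38 ± 0.26, adjusted p = 0.00957). In WT cells Tap1 was the 1 of 14 that rose (1.09 ± 0.23, adjusted p = 0.0316). Of 12 GTPase and chemokine genes that interferon-gamma induces, 4 rose and none fell in IkL/L cells, beside the same 7.7%: Gbp6 (2.62 ± 0.20, adjusted p = 0.000504), Gbp2 (2.23 ± 0.39, adjusted p = 0.00683), Gbp3 (1.57 ± 0.32, adjusted p = 0.012) and Cxcl9 (0.58 ± 0.15, adjusted p = 0.03). In WT cells Gbp6 rose (1.00 ± 0.20, adjusted p = 0.0267).

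The medians of the 5 lists for GSI in IkL/L cells were 0.19 for loading, -0.06 for the box factors, 0.61 for the genes acting on Ciita, 0.44 for class I and 1.17 for the interferon-gamma induced genes, against -0.046 over all genes. In WT cells they were 0.26, 0.16, 0.32, 0.26 and 0.65 in the same order, against 0.035. Between genotypes the 1 gene of these lists that passed was Gbp6, lower in IkL/L than in WT cells under DMSO (-2.00 ± 0.20, adjusted p = 0.00241 by limma). For the difference of the GSI responses none passed. The lists held 20 called genes for GSI in IkL/L cells and 5 in WT cells. These counts depended on single arrays and were smaller without some of them. The count over all genes was also smaller without some arrays, so the dependence was not particular to these lists.

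Markers of the cell types that usually bear class II were read on the same arrays, over lists also chosen with earlier results known. Their counts stand beside 16.8% of all genes called with GSI in IkL/L cells, 7.7% higher, and 6.47% in WT cells, 2.31% higher. Of 15 dendritic cell markers none passed in any of the 5 comparisons in the limma fit, and 10 were under the median gene level on every array, among them Itgax, Flt3, Zbtb46, Xcr1 and Batf3. Their summed signal was 4064 and 3769 in the IkL/L GSI group, 3096 and 2947 in the IkL/L DMSO group, 6047 and 3644 in the WT GSI group, and 3983 and 3045 in the WT DMSO group. Of 16 B cell markers, 10 were under the median gene level on every array, among them Pax5, Cd79a, Ms4a1 and Ebf1. Their summed signal was 5125 and 3407 in the IkL/L GSI group, 5942 and 4790 in the IkL/L DMSO group, 6374 and 4290 in the WT GSI group, and 4767 and 3742 in the WT DMSO group. In IkL/L cells Vpreb1, a surrogate light chain gene (2.16 ± 0.25, adjusted p = 0.00151), Cd79b (1.57 ± 0.30, adjusted p = 0.00982) and Igll1 (0.66 ± 0.17, adjusted p = 0.0352) rose with GSI and Pou2af1 fell (-2.14 ± 0.17, adjusted p = 0.000539). In WT cells Vpreb1 rose (1.43 ± 0.25, adjusted p = 0.0195 by limma) and Pou2af1 fell (-2.07 ± 0.17, adjusted p = 0.00317). Igll1 was higher in IkL/L than in WT cells under GSI (1.03 ± 0.17, adjusted p = 0.0281).

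Of 22 monocyte, macrophage and granulocyte markers, 5 rose with GSI in IkL/L cells and 2 in WT cells, beside 7.7% and 2.31% of all genes. Under GSI 4 were higher in IkL/L than in WT cells, beside 0.945% of all genes. The lysozyme genes Lyz1 (3.09 ± 0.27, adjusted p = 0.000779 by limma) and Lyz2 (2.50 ± 0.26, adjusted p = 0.00116) led in IkL/L cells, followed by the calprotectin genes S100a8 (1.71 ± 0.26, adjusted p = 0.0037) and S100a9 (1.47 ± 0.16, adjusted p = 0.00116). In WT cells S100a8 (1.47 ± 0.26, adjusted p = 0.0192) and Lyz1 (1.37 ± 0.27, adjusted p = 0.0254) rose. The macrophage gene C1qb also rose with GSI in IkL/L cells (0.41), at levels under the median gene level on every array. C1qc (0.76) and C1qa (0.35) did not pass there. The macrophage markers Csf1r, Adgre1, Itgam, Cd14 and Cd68 did not pass in these comparisons, and 18 of the 22 were under the median gene level on every array. The summed signal of the list was 2402 and 2818 in the IkL/L GSI group, 770 and 821 in the IkL/L DMSO group, 1248 and 1056 in the WT GSI group, and 840 and 648 in the WT DMSO group. It was highest in the group in which H2-Aa was highest.

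Of 10 thymic epithelial markers, 5 rose with GSI in IkL/L cells, beside 7.7% of all genes, and none passed in WT cells. The keratin gene Krt18 was at 7.97 and 8.45 in the IkL/L GSI group, 6.71 and 6.64 in the IkL/L DMSO group, 5.10 and 4.69 in the WT GSI group, and 4.72 and 4.64 in the WT DMSO group, which is the order of groups of H2-Aa. It rose with GSI in IkL/L cells (1.54 ± 0.21, adjusted p = 0.00276 by limma) and was higher in IkL/L than in WT cells under GSI (3.31 ± 0.21, adjusted p = 0.000498) and under DMSO (2.00 ± 0.21, adjusted p = 0.00357). Its partner Krt8 also rose in IkL/L cells (1.58 ± 0.30, adjusted p = 0.00911), as did Prss16, a thymus protease (0.96 ± 0.17, adjusted p = 0.00738). Both were also higher in IkL/L than in WT cells under GSI (1.84 ± 0.30, adjusted p = 0.0246, and 1.07 ± 0.17, adjusted p = 0.0229). Ccl25, which did not pass between genotypes, rose with GSI in IkL/L cells (0.89). Epcam rose there too (1.73 ± 0.21, adjusted p = 0.00185), but its level in IkL/L cells was below that in WT cells under GSI (-1.66 ± 0.21, adjusted p = 0.00862) and under DMSO (-2.65 ± 0.21, adjusted p = 0.00109). Foxn1, the defining transcription factor of thymic epithelium, lay between 4.06 and 4.34 on all arrays, and it was among the 6 of 10 under the median gene level on every array, with Krt5, Krt14, Psmb11, Aire and Prss16. The summed signal was 836 and 1017 in the IkL/L GSI group, 413 and 443 in the IkL/L DMSO group, 996 and 805 in the WT GSI group, and 661 and 655 in the WT DMSO group. A sum is led by its brightest genes, and Epcam reached 9.45 on a WT GSI array. The mean log2 level of the 10 genes was 5.72 and 5.94 in the IkL/L GSI group, 5.08 and 5.18 in the IkL/L DMSO group, 5.29 and 5.22 in the WT GSI group, and 5.22 and 5.12 in the WT DMSO group, so that it was highest in IkL/L cells with GSI.

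**Figure D4:**
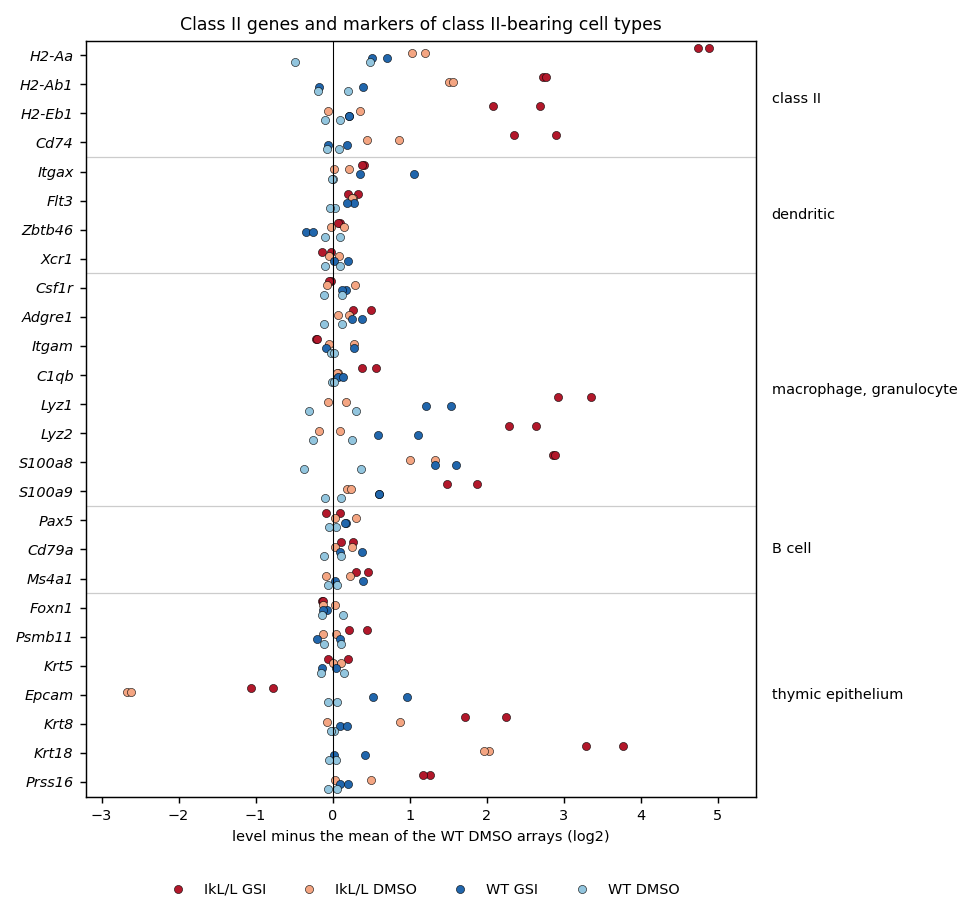
Log2 level minus the mean of the WT DMSO arrays (horizontal axis) of 4 class II genes and of markers picked from the lists. The markers are of dendritic cells, macrophages and granulocytes, B cells and thymic epithelium, with a point for each of the 8 arrays. Among markers not drawn, Vpreb1, Cd79b, Igll1 and Ccl25 rose with GSI in IkL/L cells and Pou2af1 fell. The IkL/L GSI points of Lyz1, Lyz2, S100a8, Krt8 and Krt18 lie to the right with those of the class II genes, while those of Itgax, Zbtb46, Csf1r, Itgam, Pax5 and Foxn1 lie near 0.

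Stromal markers, which the OP9 DL1 feeder cells could carry, did not pass for GSI in either genotype (none of 16 by limma). Pdgfrb was higher in IkL/L than in WT cells under DMSO (1.22 ± 0.20, adjusted p = 0.0236). Their summed signal was 5598 and 3779 in the IkL/L GSI group, 5750 and 3213 in the IkL/L DMSO group, 6974 and 2029 in the WT GSI group, and 3799 and 2380 in the WT DMSO group, so that it differed more between replicates than between groups. Of 10 innate lymphoid and natural killer markers Nkg7 rose with GSI in IkL/L cells (1.57 ± 0.31, adjusted p = 0.0109) and stood lower in IkL/L than in WT cells under DMSO (-1.87 ± 0.31, adjusted p = 0.0251). The marker lists of other cell types held 15 called genes for GSI in IkL/L cells, 4 in WT cells and 9 between genotypes under GSI. These counts depended on single arrays and were smaller without some of them, as was the count over all genes. The part of other cell types in the class II values was not tested.

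As a rough guide to RNA length, and no direct measure of it, the 3' minus the 5' log2 level of the GAPDH control probe sets was read. This value is of a single transcript. It was 3.09 and 3.03 in the IkL/L GSI group, 1.87 and 2.47 in the IkL/L DMSO group, 2.20 and 3.08 in the WT GSI group, and 1.71 and 2.12 in the WT DMSO group. It was thus larger with GSI in both genotypes. WT GSI replicate 2, whose value of 3.08 lay between those of the IkL/L GSI arrays, had H2-Aa at 5.81, H2-Eb1 at 5.40 and Cd74 at 5.48, below all IkL/L GSI arrays. H2-DMa and H2-Ob were higher on the GSI arrays of both genotypes, as this value was. The part of RNA length in the differences of the class II genes was not tested.

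The genes whose pattern was most like that of H2-Aa were sought among 1199 genes with a range of at least 2 on the log2 scale, by Pearson's r over the 8 arrays, which fall into 4 groups of 2. The values are a description. Highest were Mctp1 (0.988), Plscr2 (0.986), Pcdhb16 (0.986), Rhoj (0.985), Ncam1 (0.984), Hsd3b7 (0.974), Gsap (0.973), Gli1 (0.973), Myzap (0.971) and Greb1l (0.971). Rhoj, which encodes a small GTPase, averaged 9.11 in IkL/L cells with GSI and 6.90 in those with DMSO, against 6.43 and 5.85 in WT cells with GSI and with DMSO. Gli1, a transcription factor gene of the Hedgehog pathway, had group means of 7.34, 5.47, 4.78 and 4.72 in the same order. Among the class II genes r with H2-Aa was 0.976 for Cd74, 0.971 for H2-Eb1, 0.918 for H2-Ab1 and 0.705 for H2-Oa, and it was 0.080 for H2-DMa, -0.120 for Ciita and -0.229 for H2-Ob. Ciita, which itself ranged over 0.43, was most like Kntc1 (0.916), Mei4 (0.895), Nab2 (0.870), Dpy19l1 (0.860) and Ube2s (0.857), and its r with H2-DMa was -0.849.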

How the data were processed

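Per the labels, RNA of the sorted cells went through a two-cycle labelling for Affymetrix arrays. The deposited values are log2 levels per probe set, made by the authors with RMA, per the submitters' processing notes; neither its version nor the set of arrays it was run on is given in the sources used here. They were used as deposited. The number of arrays limits the precision.

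Groups came from the sample titles. Of 45101 probe sets, 64 controls, 932 listed with several genes and 9160 with none were left out, and for 9010 genes with several probe sets the one with the highest mean was used, giving 18193 genes with no filter on dim ones. Probe sets were named from the platform annotation. Of the 8 genes, 4 have several probe sets.

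All 8 arrays entered a single fit, made in R 4.3.3 with the limma package 3.58.1 (group terms, moderated by eBayes with an intensity trend; 4 residual and 4.11 prior degrees of freedom), two-sided, with Benjamini-Hochberg adjustment over all genes and calls below 0.05. Errors are moderated standard errors (SE), and intervals are at 95%. The genes and lists were chosen with earlier results of these data known. The text names all 8 genes and up to 4 called genes of each list and comparison with the largest difference. C1qb and Ccl25, also called, were added. Further genes are named as checks or as not passing, beside the 10 genes most like H2-Aa and 5 most like Ciita. Alternatives were the replicate number as a block, the mean of a gene's probe sets, every probe set, only the arrays of a comparison, a fit with no trend, the brighter genes (above the median level), a further quantile normalization, centring, and leaving out each array. The fit was tested on simulated data with 100 genes changed by 1 and 100 by 2 on the log2 scale. It recovered 53 and 88 of them for GSI in WT cells and 24 and 72 for the difference of the responses. In the other comparisons it recovered 51 to 62 and 88 to 95. A gene that did not pass may therefore still differ. Tables were made with Python 3.11.15, pandas 2.3.3 and numpy 2.4.6 and plots with matplotlib 3.10.9.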

Additional observations from a re-analysis of the deposited data

Results flagged for a closer look

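Pdgfrb, a stromal marker gene counted beside the class II genes, moved in opposite directions with GSI in the 2 genotypes on every array. In IkL/L cells it was at 9.71 and 9.82 with GSI, against 10.19 and 10.33 with DMSO. In WT cells it was at 9.31 and 9.40 with GSI, against 8.80 and 9.28 with DMSO. The difference of the responses, IkL/L minus WT, was -0.81, and it was not among the genes called for that difference. The opposite directions themselves were not tested. No value of the 8 class II genes was picked out in this way, and groups of 2 arrays do not allow a check for a single array far from the rest.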

How the results depend on the processing

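The replicate numbers are not said to pair the arrays. The deviations of same-numbered arrays from their group means correlated at 0.71 between WT GSI and WT DMSO and at -0.01 between IkL/L GSI and IkL/L DMSO. Between genotypes, IkL/L DMSO correlated at 0.58 with WT DMSO and at 0.56 with WT GSI. IkL/L GSI correlated at -0.11 with WT DMSO and at 0.02 with WT GSI. What the same-numbered arrays share was not tested. With the replicate number as a block, 1973 genes were called for GSI in WT cells (1177 without it), 542 and 470 between genotypes under DMSO and under GSI (316 and 266), and 24 for the difference of the responses (8), with 2 of the 8 class II genes, H2-Aa at 3.09 and H2-Eb1 at 2.02, for that difference (none) and 4 between genotypes under DMSO (2). With the mean of a gene's probe sets, 1 of the 8 was called for GSI in WT, 1, H2-Aa at 2.09, for the difference and 1 between genotypes under DMSO. With every probe set, 1 was called in WT, and 2 probe sets for the difference. Only genes above the median level gave 2 calls for the difference and 154 between genotypes under GSI, and no trend gave 2 for the difference. With only the arrays compared, 0 of the 8 and 1 gene were called in WT and 101 genes between genotypes under GSI. Leaving out each array in turn gave 0 to 2 of the 8 and 9 to 1341 genes for GSI in WT, 4 to 6 and 947 to 3860 in IkL/L, 0 to 1 and 0 to 5 for the difference, 1 to 2 and 76 to 425 between genotypes under DMSO, and 4 to 5 and 100 to 238 under GSI. The counts that involve IkL/L arrays describe genes chosen on them and say nothing of stability. Among these, H2-Ab1 for GSI lost the threshold without each of the IkL/L arrays in turn, at 1.19 to 1.23, H2-DMa for GSI in 2 of 8 fits, H2-Ob between genotypes under GSI in 2, and H2-Ab1 under DMSO in 6. For GSI in WT, Cd74 ranged from -0.06 to 0.19 over these fits (-0.0139 without WT DMSO replicate 2, -0.0612 without WT GSI replicate 1; -0.0028 with quantile normalization once more), and H2-Ab1 from -0.18 to 0.39. The causes were not tested, beyond fewer arrays or genes in the fits that leave some out. Centring moved the median of all genes for GSI in IkL/L cells to -0.104.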
